A study of Drosophila melanogaster with 2 samples.

Results

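The spliceosome core genes examined here are 32 protein-coding genes of Drosophila melanogaster, of 13945 protein-coding genes on X, 2L, 2R, 3L, 3R and 4. They were chosen by gene symbol alone: symbols that start with LSm or Prp and a digit, with snRNP-, Sf3a, Sf3b or U2af, and the named Sm genes. The rule uses no binding value, but it was set with earlier results of these data known. They comprise 6 Sm genes, 3 LSm genes, 2 snRNP- genes, 9 genes of the U2 particle and its partner U2AF, and 12 Prp genes. SmG, which the rule also names, matched no symbol in the annotation. Not all of them act in splicing alone: LSm1, for instance, belongs to the cytoplasmic ring that promotes mRNA decapping. Some core genes carry other symbols (SNRPG, snf, U2A and LSm-4 among them) and are described apart.

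The study measured where the product of CG9932, fused to eGFP, sat on chromatin in whole embryos aged 8 to 24 h, by chromatin immunoprecipitation and sequencing (ChIP-seq). The sample description says that the antibody was against GFP, while the antibody label names CG9932; which is right cannot be told from the labels. Per the labels, chromatin was sonicated to fragments of 200 to 800 bp, and the 2 samples are biological replicates 1 and 2 of 1 group. Both come from transgenic flies of a strain with an insertion targeting CG9932. The promoter that drives the fusion, and whether untagged CG9932 product was also present, are not stated in the labels. Whole embryos mix all cell types, so a peak does not tell in which cells the protein was bound, and no condition is compared. No control sample was analysed here. The measurements are lists of peaks on dm6, with a summit and a signal from the authors' peak caller, and no read depth is given.

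The spliceosome removes introns from pre-mRNA. It assembles from small nuclear ribonucleoproteins (snRNPs), each a small nuclear RNA with a ring of Sm or LSm proteins and proteins of its own. The U1 snRNP recognises the start of an intron, U2AF and the U2 snRNP recognise its end and branch point, and the U4/U6 and U5 particles join before Prp helicases and their partners drive the catalytic steps. These genes are needed in every cell that splices RNA, and are usually described as broadly expressed.

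A gene was called bound when a summit of the conservative peak set, the stricter of the 2 sets made from both replicates, lay within 500 bp of one of its transcription start sites (TSS). By this rule 20 of the 32 spliceosome genes were bound (62.5%, Wilson 95% interval 45.3 to 77.1, which covers the counting of genes only), against 29.9% of all protein-coding genes. The bound genes were SmD2, SmD3, LSm1, snRNP-U1-70K, snRNP-U1-C, Sf3a1, Sf3a2, Sf3b1, Sf3b2, Sf3b3, Sf3b6, U2af38, U2af50, Prp3, Prp5, Prp6, Prp18, Prp19, Prp31 and Prp39. The unbound genes were SmB, SmD1, SmE, SmF, LSm3, LSm7, Sf3b5, Prp4k, Prp8, Prp16, Prp38 and Prp40. Replicate 1's own set bound 20 of them, against 30.1% of all genes, and replicate 2's own set bound 16 (50%), against 23.9% of all genes. The optimal set, the looser one from both replicates, bound 21 by adding SmB, against 31.4% of all genes. When a summit was given to the gene with the nearest TSS alone, 13 of the 32 remained bound (40.6%), against 22.8% of all genes. The genes were not tested as a list, since members can share a summit with a neighbour and were chosen with earlier results of these data known.

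**Figure D1:**
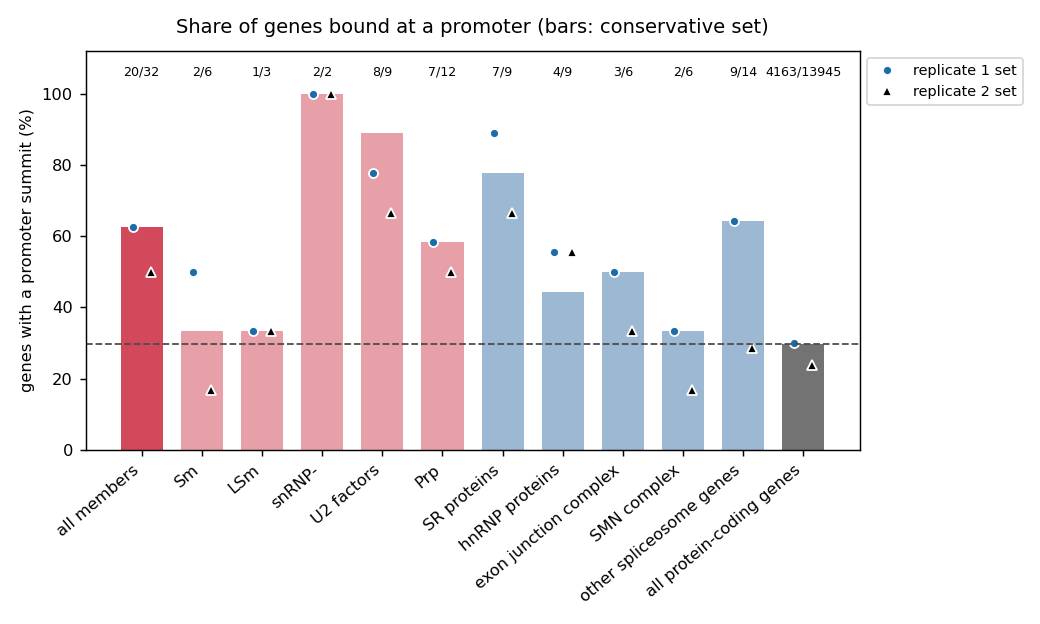
Share of genes with a summit within 500 bp of a TSS (y axis, percent), for the 32 spliceosome genes, their 5 classes, 5 lists of other splicing genes and all protein-coding genes (x axis). Bars show the conservative set, circles and triangles each replicate's own set, and the dashed line the share over all genes, 29.9%; the snRNP- and U2 classes stand highest among the classes at 2 of 2 and 8 of 9 genes (3 of 9 for U2 when a summit counts for the nearest TSS alone), and the Sm and LSm classes lie near the line.

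The classes differed in how many genes carried a summit. Both snRNP- genes and 8 of the 9 U2 factor genes were bound, 7 of the 12 Prp genes, 2 of the 6 Sm genes (33.3%) and 1 of the 3 LSm genes (33.3%), the last 2 near the 29.9% of all genes. The order of the classes depended on the rule: with each summit given to the nearest TSS alone, 3 of the 9 U2 factor genes were bound (33.3%), below the Prp genes at 6 of 12 and level with the Sm genes at 2 of 6, against 22.8% of all genes. These counts are small, and no test of the difference between classes was run. Where bound, the median signal was 222 over the 20 bound spliceosome genes (range 90.8 to 725), against 264 over all 4163 bound genes (highest 7758). The signal is the authors' own value per peak and ranks peaks only within a list.

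The sequence under the summits is shown first for 7 bound genes and for 2 unbound ones, so that strong summits, weaker summits and promoters without one can be read side by side. Each window is 201 bp of the reference genome (RefSeq, Release 6, the dm6 coordinates), read 5′ to 3′ on the strand of the gene. Capitals mark the letters CGATA on either strand, which are also the core of the DNA replication-related element (DRE, TATCGATA). The windows of the 4 strongest summits are centred on the summit at chr3R:18983680-18983880 (minus strand) for snRNP-U1-C, chr3L:6193244-6193444 (minus strand) for Sf3b6, chrX:16359042-16359242 (minus strand) for U2af50 and chr3L:12813957-12814157 (minus strand) for Sf3a2. The TSS of Sf3a2 is base 139 of its window; the other 3 start sites lie beyond the right end.
snRNP-U1-C: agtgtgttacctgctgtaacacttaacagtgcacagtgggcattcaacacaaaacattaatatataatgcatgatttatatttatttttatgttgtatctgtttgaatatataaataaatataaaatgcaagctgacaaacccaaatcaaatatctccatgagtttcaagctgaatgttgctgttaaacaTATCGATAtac
Sf3b6: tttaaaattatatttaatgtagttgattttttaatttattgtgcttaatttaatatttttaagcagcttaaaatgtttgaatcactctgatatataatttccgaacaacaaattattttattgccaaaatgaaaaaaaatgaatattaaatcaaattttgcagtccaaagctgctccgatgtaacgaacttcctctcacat
U2af50: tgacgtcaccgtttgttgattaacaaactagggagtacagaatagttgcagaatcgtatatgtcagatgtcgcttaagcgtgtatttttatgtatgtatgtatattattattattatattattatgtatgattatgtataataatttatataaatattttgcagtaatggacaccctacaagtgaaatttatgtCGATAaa
Sf3a2: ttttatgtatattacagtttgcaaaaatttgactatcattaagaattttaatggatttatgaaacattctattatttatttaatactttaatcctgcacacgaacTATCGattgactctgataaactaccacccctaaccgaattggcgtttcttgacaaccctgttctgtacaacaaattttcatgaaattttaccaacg

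A and T dominate these windows, which have 29.4% GC at snRNP-U1-C, 23.9% at Sf3b6, 27.4% at U2af50 and 29.9% at Sf3a2. No CGATA occurs at Sf3b6, it occurs once at U2af50 and once at Sf3a2, and snRNP-U1-C has a DRE at the far end of its window, which holds CGATA on each strand. The following 3 windows belong to SF3b subunit genes with summits of falling signal. They lie at chr2L:568114-568314 (plus strand) for Sf3b1, chr2L:3029115-3029315 (minus strand) for Sf3b2 and chr3L:833351-833551 (minus strand) for Sf3b3, with the TSS at base 148 in Sf3b2 and base 167 in Sf3b3, and beyond the right end in Sf3b1.
Sf3b1: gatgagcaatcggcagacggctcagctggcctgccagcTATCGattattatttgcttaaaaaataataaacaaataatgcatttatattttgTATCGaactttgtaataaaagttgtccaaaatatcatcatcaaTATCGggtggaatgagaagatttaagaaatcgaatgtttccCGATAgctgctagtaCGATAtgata
Sf3b2: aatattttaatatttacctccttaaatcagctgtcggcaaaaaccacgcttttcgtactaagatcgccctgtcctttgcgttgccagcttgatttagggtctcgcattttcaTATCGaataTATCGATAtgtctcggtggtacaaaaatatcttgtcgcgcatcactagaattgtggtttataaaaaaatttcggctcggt
Sf3b3: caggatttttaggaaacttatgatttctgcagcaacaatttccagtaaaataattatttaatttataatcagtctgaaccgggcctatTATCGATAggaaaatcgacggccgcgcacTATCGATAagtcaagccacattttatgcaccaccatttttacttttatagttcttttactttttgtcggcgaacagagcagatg

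The CGATA letters occur 5 times in the Sf3b1 window. The Sf3b2 window holds 1 DRE, and the Sf3b3 window holds 2, on either side of the summit. The last pair are unbound promoters, centred on the TSS (base 101): SmE at chr2L:7885350-7885550 (minus strand) and Sf3b5 at chr3R:9015241-9015441 (minus strand).
SmE: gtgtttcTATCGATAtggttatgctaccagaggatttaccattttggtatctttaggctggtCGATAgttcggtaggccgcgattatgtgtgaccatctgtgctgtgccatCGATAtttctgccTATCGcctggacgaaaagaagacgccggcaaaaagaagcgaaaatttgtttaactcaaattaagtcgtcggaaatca
Sf3b5: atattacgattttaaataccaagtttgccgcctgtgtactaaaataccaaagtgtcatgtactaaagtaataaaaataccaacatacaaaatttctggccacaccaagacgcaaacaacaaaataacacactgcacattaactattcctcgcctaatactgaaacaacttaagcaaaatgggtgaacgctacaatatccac

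SmE had no peak within 500 bp of its TSS in any of the lists used, and its window holds 1 DRE and 5 CGATA matches, as many as the Sf3b1 window. Sf3b5 had none there either, and its window holds no match.

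Over all members, CGATA stood within 100 bp of the summit at 15 of the 20 bound genes (75%), against 1540 of all 3467 promoter summits (44.4%). Within 50 bp the shares were 40% of member summits and 29.3% of all promoter summits. The complete DRE stood within 100 bp of 3 member summits (15.0%), those of snRNP-U1-C, Sf3b2 and Sf3b3, against 10.3% of all promoter summits. The other motifs lay near or below the background: Motif 1, searched as GGTCACACT, stood at 1 member summit (5%), against 4.47% of all promoter summits. Motif 6, searched as GTATNTTT, stood at 1 (5%), against 10.8%, and Motif 7 at 2 (10%), against 13.96%. Summits without CGATA nearby were those of snRNP-U1-70K, Sf3b6, Prp18, Prp19 and Prp31.

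The GC content of the 201 bp around a summit was computed after these sequences had been seen. Its median was 34.1% over the 20 member summits, against 38.3% over all promoter summits. It was lowest at Sf3b6 (23.9%) and highest at SmD3 (53.7%). The members with the 5 highest signals had between 23.9% and 29.9% GC. Across the 20 members GC content and signal had a Spearman rho of -0.62, and across all 3467 promoter summits of -0.33. Members and other summits share 1 peak list and its caller, so these values describe the list, and the part of base composition in the signal was not tested.

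The Sm proteins form the ring around the U1, U2, U4 and U5 RNAs, and 2 of the 6 Sm genes were bound. SmD3 (FBgn0023167, 2R, 12168731 to 12170003) had a conservative signal of 183 with the summit at -54 bp from its TSS (negative is upstream), 113 in replicate 1 and 79.9 in replicate 2. It also had the member summit nearest the inner edge of the window, a second and weaker one of signal 104 at 456 bp downstream. SmD2 (FBgn0261789, 3R, 6345000 to 6345911) had a conservative signal of 104 at -28 bp and 72.4 in replicate 1, but was not in replicate 2's own set, where its ranked peak had signal 46.0 and score 814. The score is the deposited measure of how well a peak's rank repeats, and reaches 1000. No peak of the conservative set scored under 830. SmB (FBgn0262601, 2L, 10425483 to 10426627) missed the conservative set by little. Its ranked peak there reached 102 at -182 bp and a score of 781, and it was in replicate 1's own set (signal 83.0) but not in replicate 2's, where the ranked signal was 33.6. SmF was listed further down, with a ranked peak of 49.1 at 298 bp downstream of its TSS, and of 26.6 in replicate 1 and 21.4 in replicate 2. SmD1 and SmE had no ranked peak within 500 bp in any of the lists used.

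The LSm ring binds the U6 RNA, and a related ring with LSm1 acts in mRNA decay. LSm1 (FBgn0261067, 2R, 21169969 to 21170672) had a summit of signal 427 at -210 bp, and of 228 in replicate 1 and 218 in replicate 2. The signals of LSm1 in the replicates were nearly equal. This summit was nearer to the TSS of the neighbour Xpd, at 119 bp, which encodes a helicase of transcription and DNA repair. LSm3 and LSm7, which belong to both rings, had no ranked peak in any list, and their nearest conservative summits lay at -3292 bp and 15254 bp.

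The U1 snRNP genes were both bound. snRNP-U1-C (FBgn0261792, 3R, 18982964 to 18983650), whose product steadies the pairing of U1 with the start of the intron, had the strongest summit of all 32 genes. Its signal was 725 at -130 bp, 418 in replicate 1 at the same position and 301 in replicate 2 at -139 bp. snRNP-U1-70K (FBgn0016978, 2L, 6968711 to 6971737), which binds the U1 RNA directly, had a signal of 135 at -170 bp, 75.1 in replicate 1 and 56.8 in replicate 2. The summit of snRNP-U1-70K was one of 3 that no other gene's TSS shared.

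Of the U2 factor genes, those with the 3 strongest summits were Sf3b6, U2af50 and Sf3a2. Sf3b6 (FBgn0035692, 3L, 6192124 to 6193179), the small SF3b subunit that touches the branch point, had a signal of 664 at -165 bp, 358 in replicate 1 and 291 in replicate 2. U2af50 (FBgn0005411, X, 16356696 to 16359039), the U2AF subunit that reads the polypyrimidine tract, had a signal of 657 at -103 bp, 378 in replicate 1 and 286 in replicate 2. Its summit lay 1 bp from the TSS of the divergent gene PIG-Q. Sf3a2 (FBgn0036314, 3L, 12813028 to 12814019), which belongs to the trimer that joins U2 to its mature form, had a signal of 526 at -38 bp, 299.8 in replicate 1 and 232 in replicate 2. All 3 were in both replicates' own sets.

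The other SF3b genes ranged widely. Sf3b1 (FBgn0031266, 2L, 568340 to 572907), the large subunit that clamps the branch region, had a signal of 357 at -126 bp, 225 in replicate 1 and 140 in replicate 2. Sf3a1 had 293, 169 and 126 in the same order of lists, and U2af38, the U2AF subunit that reads the end of the intron, had 189, 113 and 99.6. Sf3b2 (FBgn0031493, 2L, 3026252 to 3029168) was bound with a signal of 146 at -47 bp and 111 in replicate 1, but its peak in replicate 2 was only ranked, with a signal of 37.6 and a score of 53. Sf3b3 (FBgn0035162, 3L, 826720 to 833385) was in the conservative set with a signal of 91.1 at -66 bp and in neither replicate's own set, where its ranked peaks had scores of 803 in replicate 1 and 587 in replicate 2. It was the only such case among the 20 bound genes. Sf3b5, the smallest of the 32 genes at 370 bp, had no ranked peak, and its nearest conservative summit (signal 181) lay 1097 bp downstream of its TSS, past the end of the gene. That made it the unbound member with a conservative summit closest to the 500 bp limit.

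The Prp proteins include helicases, scaffold proteins and parts of the U4/U6 and U5 particles, and 7 of 12 genes were bound. Prp19 (FBgn0261119, 2R, 18447361 to 18451041), the ubiquitin ligase of the complex named after it, had a signal of 258 at -79 bp, 157 in replicate 1 and 99.5 in replicate 2. Prp18 (FBgn0027784, 3R, 19029968 to 19031271), a factor of the second catalytic step in yeast, had a signal of 233 at -39 bp, 144 in replicate 1 and 88.5 in replicate 2. Its summit lay at -22 bp in replicate 1 and at -96 bp in replicate 2. Prp31 (FBgn0036487, 3L, 15159100 to 15161138), a U4/U6 protein, had a signal of 232 at -196 bp, 108 in replicate 1 and 116 in replicate 2. It was the only member found in both replicates' own sets whose signal was higher in replicate 2. Its replicate summits were also the farthest apart, 89 bp, at -146 bp in replicate 1 and -235 bp in replicate 2.

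The remaining bound Prp genes had lower signals. Prp39, a U1-associated protein in yeast, had 212, 111 in replicate 1 and 106 in replicate 2, and a further summit at -716 bp with a signal of 107, the nearest to a member TSS outside the 500 bp limit. Prp6 (FBgn0036828, 3L, 18905372 to 18908974), which bridges U5 and U4/U6, had 174 at -428 bp, 127 in replicate 1 and 49.0 in replicate 2. Its strongest summit was the farthest from a TSS among the bound genes, and lay 14 bp from the TSS of the divergent CSN1b, a COP9 signalosome subunit. Prp5, an ATPase of early assembly, had 162, 117 in replicate 1 and 54.6 in replicate 2. Prp3 (FBgn0036915, 3L, 19910300 to 19912504), a U4/U6 protein, had the weakest bound peak, 90.8 at 14 bp downstream of the TSS, 55.0 in replicate 1 and a ranked peak of 36.3 with a score of 45 in replicate 2. It was the only bound gene whose strongest summit lay downstream of the TSS. Another summit, of signal 123, lay at -841 bp.

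Of the 5 unbound Prp genes, Prp38, known from yeast as a factor of spliceosome activation, had the strongest ranked peak, of signal 50.2 at -137 bp, 21.9 in replicate 1 and 30.9 in replicate 2. Prp16 (an ATPase of the second step), Prp40 (a U1-associated protein in yeast) and Prp8 (the scaffold of the catalytic centre) had ranked signals of 31.0, 33.0 and 13.5. Prp16 had 28.0 in replicate 1 and 13.6 in replicate 2, the latter at its other TSS. Prp40 had 30.1 in replicate 1 and no peak in replicate 2. Prp8 had its peak at 373 bp, one of 20.7 at 456 bp in replicate 1, and one of 26.5 at -458 bp in replicate 2. Prp4k, a kinase, had 1 ranked peak, in replicate 1, of signal 3.78. Unbound genes could stand close to bound ones. The nearest conservative summit to Prp8, at -5679 bp, was that of SmD3, and the nearest to Prp40, at 5989 bp, was that of Sf3b2.

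**Figure D2:**
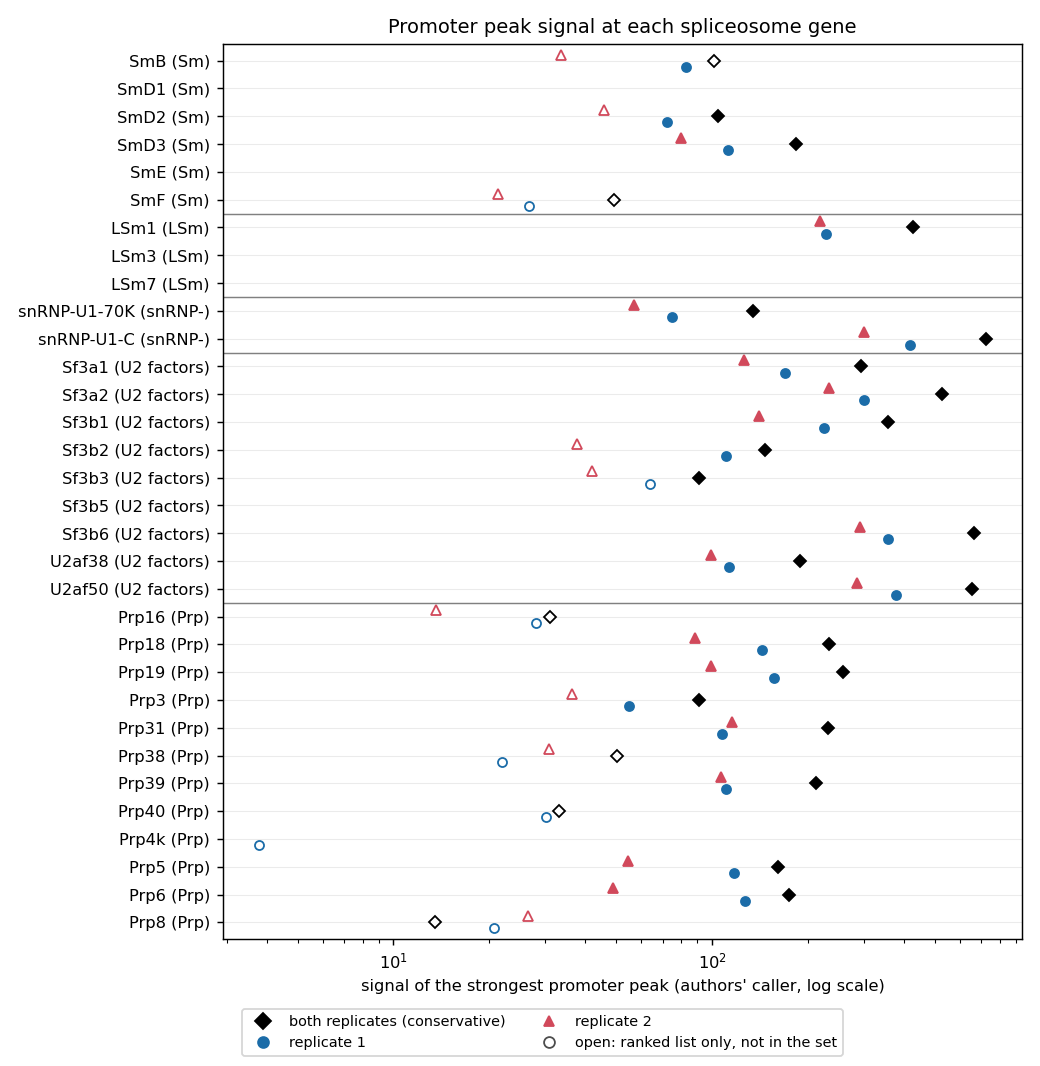
Signal of the strongest peak within 500 bp of a TSS (x axis, log scale, the authors' caller's value) for each of the 32 spliceosome genes (rows, by class). Diamonds are the conservative comparison, circles replicate 1 and triangles replicate 2, open where a peak is only in the ranked list; rows with no symbol had no ranked peak, and the scale of each list is its own.

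The ranked lists, which hold many weak peaks, gave a value to unbound genes too. Each gene was placed by its strongest peak within 500 bp of a TSS as a percentile among all 13945 genes, where 50 is the middle and genes with no peak tie at the bottom. The median percentile of the 32 spliceosome genes was 76.0 in the conservative ranked list, 77.1 in replicate 1 and 73.3 in replicate 2. SmB stood at 71.6, 75.2 and 65.4 in these lists, Prp38 at 55.6, 45.1 and 62.9, and SmF at 54.8, 51.4 and 49.4. These were the highest unbound members in the conservative ranked list. In replicate 1, Prp40 (55.3) and Prp16 (52.9) stood above SmF and Prp38, and in replicate 2, Prp8 (57.6) stood above SmF. Of the 32 genes, 5 (15.6%) had no peak in any of the 3 lists, namely SmD1, SmE, LSm3, LSm7 and Sf3b5, against 17.6% of all genes. That share lay near the background.

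Most summits in both replicates' own sets lay close together. Of the 32 genes, 16 were in both replicates' own sets, 4 in that of replicate 1 alone (SmB, SmD2, Sf3b2 and Prp3), and none in that of replicate 2 alone. Over the 16 genes in both, the summits of the replicates lay a median of 10.5 bp apart, and at most 89 bp, at Prp31. The signal was higher in replicate 1 at 15 of 16 genes, with a ratio of replicate 1 over replicate 2 between 0.931 and 2.59 and a median of 1.34. Over all 3194 genes in both sets the median ratio was 1.39. The Spearman rho between the replicates' signals was 0.77 over the 16 members and 0.93 over all 3194 genes. These points share libraries and some share summits, and no p is given.

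**Figure D3:**
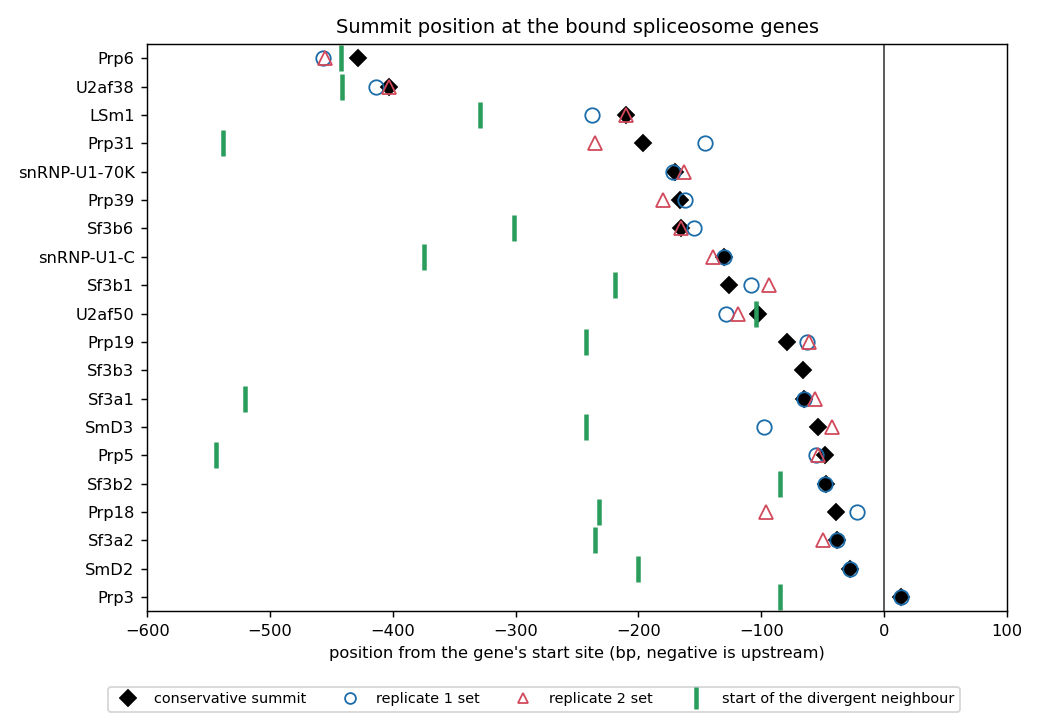
Position of the strongest summit from the TSS (x axis, bp, negative is upstream) for the 20 bound spliceosome genes (rows, ordered by position). Filled diamonds are the conservative set, open circles and triangles the replicates' own sets, and green bars the TSS of a divergent neighbour where it lies within 600 bp; all but Prp3 lie upstream, and those of Prp6, U2af38, U2af50 and Sf3b2 lie within 50 bp of the TSS of a neighbour.

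The summits lay just upstream of the genes and often between 2 genes. Of the 20 bound members 19 had the strongest summit upstream of the TSS (95%), against 88.0% of all bound genes, and the median position was -91 bp, against -102 bp. A divergent neighbour, a gene on the other strand that starts within 500 bp upstream, was annotated for 21 of the 32 spliceosome genes (65.6%), against 27.4% of all genes. Bound genes were 14 of the 21 with such a neighbour (66.7%) and 6 of the 11 without (54.5%), against 55.7% and 20.1% of all genes with and without one. The split depended on the distance. With neighbours up to 1000 bp upstream, 19 of 28 members with one (67.9%) and 1 of 4 without (25%) were bound. Over all genes the shares at 1000 bp were 51.2% and 17.7%. Of the 20 bound members, 17 shared their summit with at least 1 other gene's TSS (85.0%), against 55.0% of all bound genes. Only snRNP-U1-70K, Sf3b3 and Prp39 did not. At 7 members the TSS of another gene was nearer: LSm1 (Xpd), Sf3b1 (Nle), Sf3b2 (CG17219), Sf3b6 (Tnpo), U2af38 (Stip1), U2af50 (PIG-Q) and Prp6 (CSN1b). A summit between 2 close start sites cannot be given to either gene. How far the share of divergent promoters accounts for the share bound was not tested.

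**Figure D4:**
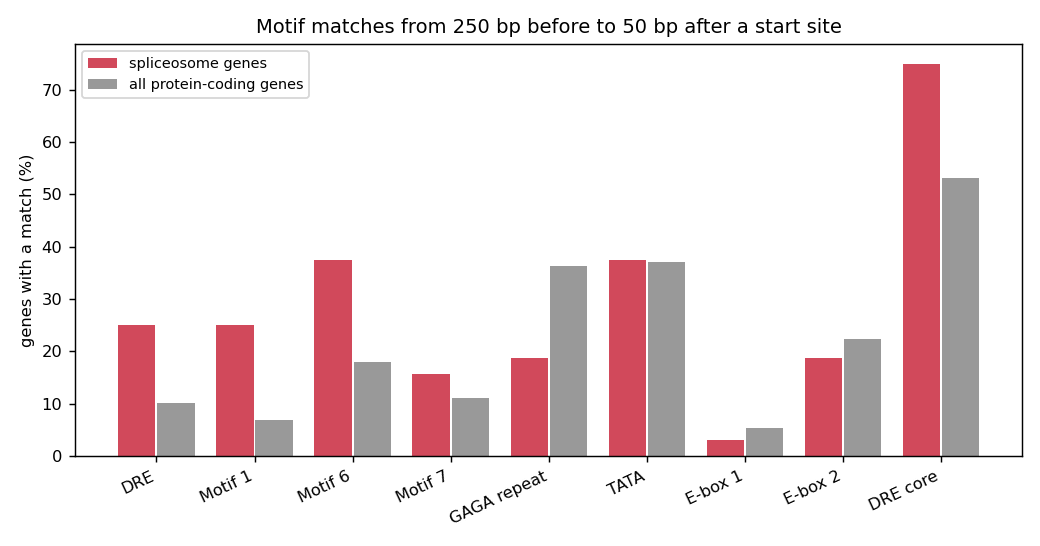
Share of genes with a motif match between 250 bp before and 50 bp after a TSS (y axis, percent), for the 32 spliceosome genes (red) and all 13945 protein-coding genes (grey). The members stand higher for the DRE, Motif 1, Motif 6 and the DRE core, near the background for TATA, and lower for the GAGA repeat; within 500 bp of a TSS the DRE core stood at 84.4% of members, against 81.8% of all genes.

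The promoters of the 32 genes also had sequence features that the choice by symbol did not use. A gene counted when the window at any of its TSS held a match. A single TSS was annotated for 84.4% of members, against 73.5% of all genes. How far this affects the shares was not tested. Between 250 bp before and 50 bp after a TSS, on either strand, the DRE stood at 8 members (25%), against 10.2% of all genes. Motif 1, a core promoter element of housekeeping genes, stood at 8 members (25%), against 6.78% of all genes. Motif 6 stood at 12 members (37.5%), against 18.0% of all genes, and CGATA, which every DRE contains, stood at 24 members (75%), against 53.1%. Motif 7, another core promoter element, stood at 5 members (15.6%), against 11.1% of all genes. GAGAG, the letters bound by GAGA factor, stood at 6 members (18.8%), against 36.4%, and TATAAA on the gene's strand at 12 members (37.5%), against 37.0%. The E-box letters CACGTG stood at 1 member and CAGCTG at 6 members (18.8%), against 5.34% and 22.3% of all genes. Some of these shares depended on the window. From 500 bp before to 500 bp after a TSS, CGATA stood at 84.4% of members, against 81.8% of all genes, and Motif 7 at 18.8% of members, against 19.2%. In that window Motif 6 stood at 62.5% of members, against 36.0% of all genes, and within 100 bp of a TSS at 21.9%, against 12.05%. GAGAG stood at 43.8% of members, against 70.7% of all genes, in the wide window.

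Bound and unbound members were set side by side for these letters, with no test. Motif 1 stood at 7 of the 20 bound members and at 1 of the 12 unbound ones, SmF. The DRE stood at 6 of the 20 bound members and at 2 of the 12 unbound ones, SmB and SmE; within 500 bp of a TSS it stood at 6 of 20 bound and 4 of 12 unbound members, which turns the direction. CGATA stood at 15 of the 20 bound and at 9 of the 12 unbound members. Within 100 bp of a TSS the counts were 15 of 20 bound and 6 of 12 unbound members, and within 500 bp 16 of 20 and 11 of 12, so the order depends on the window. Over all genes, 50.5% of those with a DRE and 27.5% of those without were bound, 47.1% of those with Motif 1 and 28.6% of those without, and 37.0% of those with CGATA and 21.8% of those without. A match is a description of the sequence and does not show that a factor bound there.

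Other genes listed as part of the splicing pathway were counted beside the core genes, in lists not matched by the rule. The role of each listed gene in splicing was not checked here. Of 44 genes in these lists 25 were bound (56.8%), against 29.9% of all genes. Replicate 1's own set held 27 of them (61.4%), against 30.1% of all genes, and replicate 2's held 18 (40.9%), against 23.9%. In replicate 1, x16 and Hrb27C had the same signal of 65.9, so 1 peak may count for both. With each summit given to the nearest TSS alone, 16 of the 44 were bound (36.4%), against 22.8% of all genes. Among the SR proteins, which bind exons and help to select splice sites, 7 of 9 were bound, with SF2 at a signal of 675, and x16 and Rsf1 were not. Among the hnRNP proteins, which coat pre-mRNA, 4 of 9 were bound, led by glo (signal 575) and Hrb98DE (signal 351), and Hrb27C, sqd, HnRNP-K, mub and rump were not. Among the exon junction complex genes, 3 of 6 were bound, led by tsu (signal 660.1) and Acn (signal 649), and CG7483, btz and RnpS1 were not.

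Of the SMN complex, which loads Sm rings onto RNA, 2 of 6 genes were bound (33.3%, near the 29.9% of all genes), Smn (signal 258) and rig (signal 127), and Gem2, Gem3, Glos and Gem4b were not. Of 14 further genes listed as spliceosome genes 9 were bound, and Brr2, pea, crn, Spf45 and CG4849 were not. The strongest were U4-U6-60K (signal 854) and peng (signal 331), whose place in the spliceosome was not checked. Replicate 1's own set held 9 of these 14 genes (64.3%), against 30.1% of all genes, and replicate 2's held 4 (28.6%), against 23.9%. A selection of 4 core genes under other symbols was added after the symbol rule had been applied. Of these, SNRPG (signal 859) and snf (signal 173) were bound and LSm-4 and U2A were not. SNRPG, which the annotation lists under the synonym SmG, had a stronger summit than any of the 6 Sm genes of the rule. That summit lay at -355 bp, nearer to the TSS of another gene, so it cannot be given to SNRPG alone. The summits of SF2, glo, rig and U4-U6-60K were also nearer to the TSS of another gene.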

How the data were processed

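The authors deposited lists of ChIP-seq peaks on dm6, each peak with a signal, a summit and a score for the irreproducible discovery rate (IDR); the ranked lists also hold the deposited −log10 of that rate, which was not needed here. Per the deposited file descriptions, the conservative and optimal sets come from both replicates and 1 set from each replicate alone, each with a control alignment. The aligner, peak caller and depth were not given in the sources used here; 30 further value columns of the whole-series lists were not used. Genes and start sites came from Ensembl release 115 (BDGP6.54), sequence and synonyms from RefSeq. The conservative set held 6790 peaks on the arms, the replicates' sets 6017 (replicate 1) and 4525 (replicate 2).

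The members and lists were chosen with earlier results of these data known. Every member is named as bound or unbound. Full values are given for the 3 strongest bound members of each class, members in 1 replicate's set only, those nearest the 500 bp limit on either side and the 3 highest unbound members; other bound members have their signals. Values of 1 gene of the other lists are not reported here. With 1 group of 2 replicates there is no test between conditions, and no SD or p is given. Results were recomputed with promoters of 200 or 1000 bp, with the optimal set, each replicate's set, stronger peaks, peak centres, any overlap, the nearest TSS and other motif windows; the windows of 50 and 150 bp around summits were chosen after seeing the data. Python 3.11.15 and scipy 1.17.1 were used. The code for bound calls was run on 200 simulated summits, with 0 wrong calls over 13945 genes. That checks the code under the same rule and not the peaks themselves.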

Additional observations from a re-analysis of the deposited data

How the results depend on the processing

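When 1 replicate was left out and the set of the other was used alone, between 16 and 20 of the 32 spliceosome genes were bound, 1 to 3 of the Sm genes, 1 to 2 of the SMN complex genes and 4 to 9 of the further spliceosome genes. Giving each summit to the nearest TSS alone left 13 members bound (40.6%): 2 Sm, 0 LSm, 2 snRNP-, 3 U2 factor and 6 Prp genes. Outside the members, this setting left 5 SR protein genes, 3 hnRNP genes, 3 exon junction complex genes and 1 SMN complex gene. It also left 4 further spliceosome genes and 1 core gene under another symbol. Promoters of 200 bp left 17 members, with 0 LSm genes among them. Outside the members they left 6 SR protein genes, 4 hnRNP genes, 3 exon junction complex genes and 2 SMN complex genes. They also left 5 further spliceosome genes and 1 core gene under another symbol. Peaks at or above the median signal of the conservative set (160.7) left 15 members, with 1 Sm and 1 snRNP- gene among them. Outside the members they left 6 SR protein genes, 4 hnRNP genes, 2 exon junction complex genes and 1 SMN complex gene. They also left 6 further spliceosome genes and 2 core genes under other symbols. The optimal set bound 21. Promoters of 1000 bp, peak centres and any overlap of 1 bp each kept 20, and with 1000 bp the strongest Prp3 summit was the one at -841 bp. In these settings all genes were bound at 21.6% to 33.5%. The share of members with a divergent neighbour was 87.5% within 1000 bp, against 36.2% of all genes. CGATA lay within 150 bp of 80% of member summits, against 53.2% of all promoter summits. The cause of these changes was not tested beyond what each setting removes by construction. No paired analysis was possible because there is 1 group. Peak lists carry no depth, so a gene without a peak may have had binding too weak to be listed.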
